A study of Mus musculus with 16 samples.

Results

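Liver transcripts were found at very unequal levels in the muscle RNA of 16 mice. The genes described here are 37 liver and plasma protein genes, chosen because they are typical of hepatocytes and because their levels followed albumin in these same arrays. Of the 37, 34 had a probe set annotated with a single gene symbol and were measured, out of 22180 genes with such a probe set. Gc and Serpina3k had no such probe set, and the probe set of Trf also carries the name of Srprb, so these 3 were not used. The choice rested on the level in each mouse and its covariation with Alb, so these patterns are given as a description, with no test. Levels are log2 expression values, in which 1 unit is a doubling of the signal, and they were compared between mice for a gene and not between genes.

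Gastrocnemius, the large calf muscle, was taken from male FVB/n mice at 16 weeks of age, with 1 array for each mouse. Every mouse carried floxed alleles of Foxo1, Foxo3 and Foxo4 (FoxO1,3,4L/L) and ate a diet with 58% fat for 8 weeks. Per the labels, the mice had 3 injections of polyinosine:cytidine (pI:pC) at 4 to 5 weeks, which turn on the Mx1 promoter. The 8 deletion mice had in addition Mx1-Cre, whose recombinase is switched on by interferon, and the 8 controls were littermates without Cre. The labels call the deletion endothelial directed, and the sample labels also name the groups WT and FoxO1,3,4 knockdown. Mx1-Cre is known to act in liver and blood cells as well, so the transgene is not limited to 1 cell type, and effects of Cre itself and of the deletion cannot be told apart. Array medians lay between 4.43 and 4.61 and correlations between arrays between 0.961 and 0.988, and 10 skeletal muscle fibre genes averaged at least 12.7 in every mouse. None of the 3 targeted genes was lower past the threshold: Foxo1 differed by 0.07 (SE 0.12), Foxo3 by 0.50 (SE 0.14) and Foxo4 by -0.24 (SE 0.10), with limma adjusted p-values of 0.804, 0.0762 and 0.236. The position of their probes relative to the deleted exons was not analysed.

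Hepatocytes make most of the proteins of blood plasma, among them albumin, the clotting factors and the apolipoproteins that carry lipid. They also hold the enzymes of the urea cycle, of gluconeogenesis and of drug metabolism. These genes share control by liver-enriched transcription factors such as HNF1, HNF4 and C/EBP. In liver, FoxO factors raise Igfbp1, G6pc and Pck1 during fasting, and insulin lowers them by keeping FoxO out of the nucleus. Muscle fibres are not known as a source of plasma proteins, whereas fat cells, which lie between muscle bundles, make some of them.

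Alb, by whose own level the mice are divided below, and Fgb, which had the widest gap among the other members, were chosen. Igfbp1 and G6pc, which did not separate those mice, were set beside them. The promoters of these genes are shown from RefSeq (GRCm38.p6) to set the shared hepatocyte elements beside the FoxO elements. Each is the 250 bases before the annotated start, on the gene's own strand, 5′ to 3′. Capitals mark matches, on either strand, to GTTAAT (the core of an HNF1 site), TTGCNNAA (C/EBP), GTAAACA (FoxO, whose reverse complement TGTTTAC is also the FOXA core) or CAAAACA (the FoxO insulin response element).
Alb, chr5:90460620-90460869, plus strand: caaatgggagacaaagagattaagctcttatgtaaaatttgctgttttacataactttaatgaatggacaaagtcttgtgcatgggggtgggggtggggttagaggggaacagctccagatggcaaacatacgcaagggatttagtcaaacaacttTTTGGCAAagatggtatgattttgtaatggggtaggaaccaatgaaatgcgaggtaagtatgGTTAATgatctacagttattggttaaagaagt
Fgb, chr3:83049864-83050113, minus strand: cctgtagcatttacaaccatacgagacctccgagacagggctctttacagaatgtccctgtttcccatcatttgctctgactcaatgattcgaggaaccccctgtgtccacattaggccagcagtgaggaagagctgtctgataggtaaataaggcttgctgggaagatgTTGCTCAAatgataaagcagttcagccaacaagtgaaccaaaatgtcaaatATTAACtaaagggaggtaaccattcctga
Igfbp1, chr11:7197537-7197786, plus strand: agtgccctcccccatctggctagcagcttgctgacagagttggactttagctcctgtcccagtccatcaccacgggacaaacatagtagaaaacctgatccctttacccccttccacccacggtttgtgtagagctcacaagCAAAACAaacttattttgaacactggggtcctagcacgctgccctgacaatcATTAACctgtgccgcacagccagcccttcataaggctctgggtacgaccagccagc
G6pc, chr11:101367466-101367715, plus strand: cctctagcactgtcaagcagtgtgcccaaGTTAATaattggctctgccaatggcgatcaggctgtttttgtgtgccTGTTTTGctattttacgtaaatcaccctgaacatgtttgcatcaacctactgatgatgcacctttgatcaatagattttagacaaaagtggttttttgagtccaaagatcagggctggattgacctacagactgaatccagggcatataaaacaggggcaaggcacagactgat
The HNF1 core began 32 bases before the start of Alb, 29 before that of Fgb, 56 before that of Igfbp1 and 221 before that of G6pc. A C/EBP match began at 94 bases in Alb and 80 bases in Fgb, and a FoxO insulin response match at 108 bases in Igfbp1 and 174 bases in G6pc. Of the 28 measured members with a promoter entry, 9 held GTTAAT, against 6.52% of all 27025 promoters. TTGCNNAA was found in 8 of the 28, against 9.55% of all promoters, GTAAACA in 4, against 3.09%, and CAAAACA in 3 (Fgg, Igfbp1 and G6pc), against 5.55%. These are matches of letters and not shown to be bound.

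Alb, on chromosome 5, encodes albumin, the main carrier protein of plasma, and had the widest range of all the members. By mouse from 1 to 8 it read 5.30, 11.17, 6.47, 4.23, 5.77, 6.79, 11.08 and 8.18 in the controls. In the deletion mice it read 11.68, 11.21, 4.78, 11.61, 10.02, 7.27, 5.93 and 4.60. The values ran over 7.45 log2 units, and high and low mice occurred in both groups. In 6 mice Alb lay above 9: controls 2 and 7 and deletion mice 1, 2, 4 and 5. The lowest of these was deletion mouse 5 at 10.02, and the highest of the other 10 mice was control 8 at 8.18. The other 10 were spread from 4.23 to 8.18, so the cut at 9 falls in a gap of a graded series.

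Most other members were high in the same 6 mice. For 20 of the 33 members besides Alb, every one of the 6 mice read higher than every one of the other 10. Over all genes besides Alb this arrangement was found for 62 of 22179, or 0.280%. Because the members were chosen for following Alb, nothing is read from the difference between these shares. The Pearson correlation with Alb over the 16 mice had a median of 0.90 among the 33 members and exceeded 0.9 in 17, from 0.21 for Igfbp1 to 0.96 for Fgb. The mice with high Alb weigh heavily in these values, so the correlation is also given apart. Within the 6 mice above 9 the median was 0.82, and within the other 10 it was 0.40, with 13 members above 0.5. The points of each gene share their arrays with Alb. In bulk tissue, more liver cells or cell fragments and more of these RNAs in resident cells cannot be told apart.

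**Figure D1:**
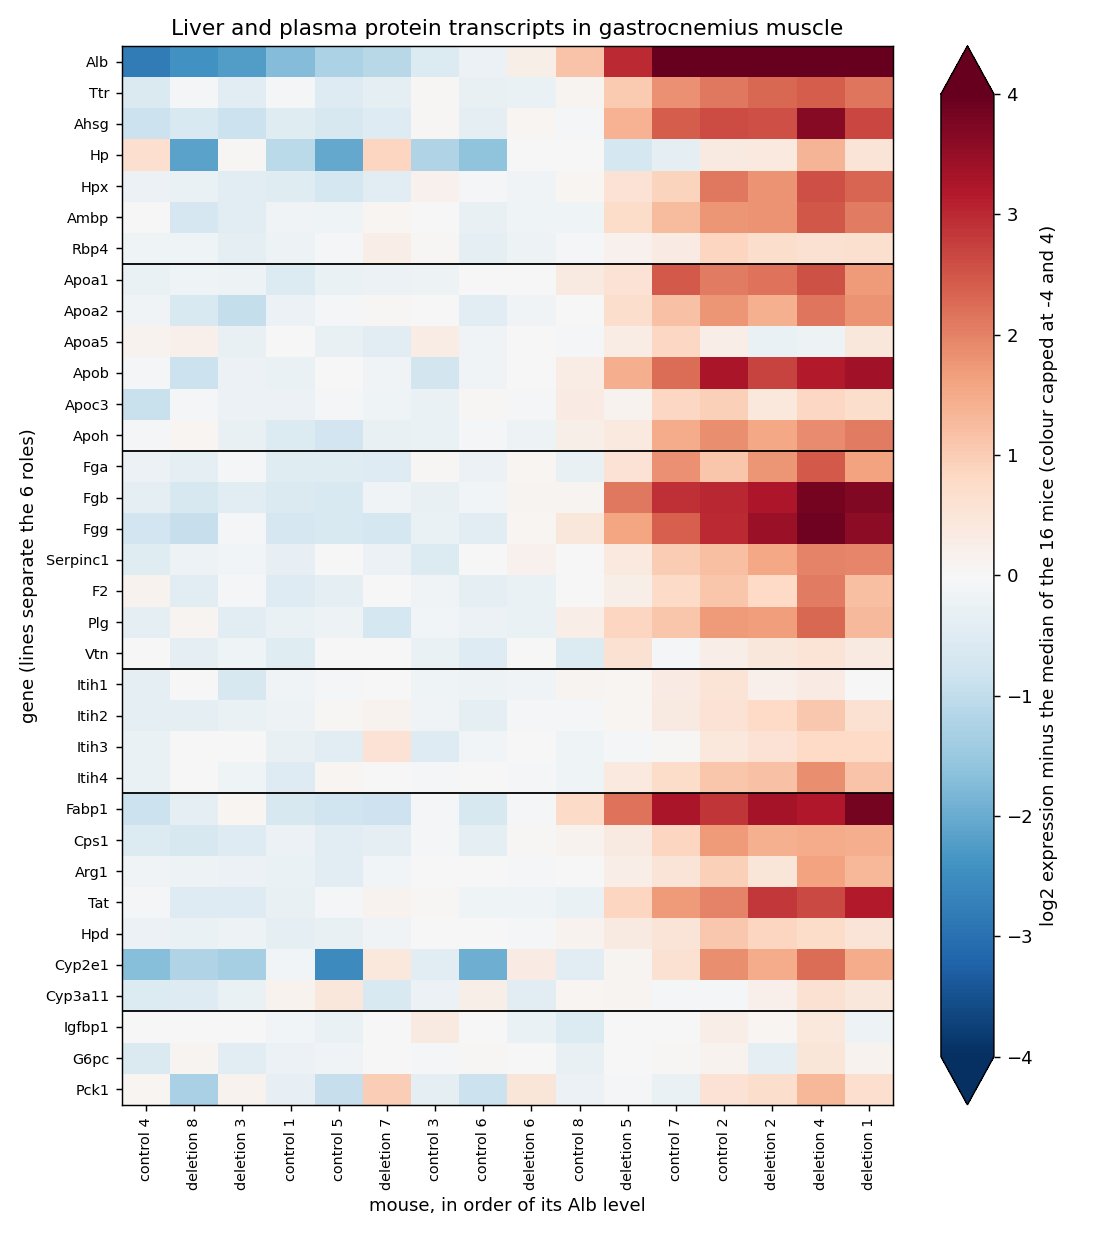
Heat map of log2 expression minus the median of the 16 mice for 34 genes (vertical axis, lines between the 6 roles) in 16 mice placed in order of Alb (horizontal axis), with colour capped at -4 and 4 log2 units. The 6 mice on the right, with Alb above 9, are high in most rows, whereas Igfbp1, G6pc, Apoa5 and Cyp3a11 show no such block.

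The carriers and other plasma proteins behaved alike, except for haptoglobin and retinol binding protein. Ahsg, which encodes fetuin A, an inhibitor of calcification, read 4.76, 7.85, 5.28, 4.39, 4.59, 4.85, 7.66 and 5.20 in the controls. It read 7.93, 7.81, 4.39, 8.90, 6.64, 5.32, 4.73 and 4.65 in the deletion mice. The 6 mice with high Alb lay between 6.64 and 8.90 and the others between 4.39 and 5.32, without overlap, and within those 10 mice Ahsg still followed Alb (r = 0.85). Ttr, the carrier of thyroid hormone, Hpx, which binds heme, and Ambp, the precursor of alpha-1-microglobulin and bikunin, also separated the 6 mice from the 10. Their lowest values in the 6 mice lay 0.93, 0.39 and 0.64 above the highest of the other mice. Rbp4, which carries retinol, had a range of only 1.24, and 5 of the 6 mice exceeded the others. Hp, which encodes the haemoglobin scavenger haptoglobin, read 5.90, 7.32, 5.78, 7.66, 4.93, 5.37, 6.60 and 6.97 in the controls, against 7.50, 7.37, 7.02, 8.33, 6.27, 6.97, 7.83 and 4.83 in the deletion mice. Only deletion mouse 4 exceeded all of the 10 mice with lower Alb, and control 4, with the lowest Alb, had the third highest Hp.

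Among the apolipoproteins, Apob had the widest range, 4.22. It encodes the backbone of very low density lipoproteins and read 4.31, 7.84, 3.83, 4.55, 4.61, 4.46, 6.81 and 4.87 in the controls. In the deletion mice it read 7.94, 7.27, 4.34, 7.75, 6.05, 4.56, 4.44 and 3.71. All 6 mice with high Alb lay at or above 6.05 and all others at or below 4.87. Apoa2, a protein of high density lipoprotein, read 5.49, 7.51, 5.73, 5.60, 5.65, 5.31, 6.90 and 5.74 in the controls, against 7.55, 7.16, 4.78, 7.89, 6.43, 5.59, 5.77 and 5.13 in the deletion mice. Its groups of high and low mice were again apart, by 0.66. Apoa1, the main protein of high density lipoprotein, and Apoh, beta-2-glycoprotein I, were apart by 0.22 and 0.16. Apoc3, an inhibitor of lipoprotein lipase, overlapped slightly, since 5 of the 6 mice exceeded control 8 at 5.24. Apoa5, an activator of that lipase, did not follow Alb (r = 0.36), and deletion mice 2 and 4 read 4.26 and 4.33. Apoa1, Apoc3 and Apoa5 lie close together on chromosome 9, so 2 near neighbours followed Alb and 1 did not. Apoa5 lay between 4.06 and 5.35 over all 16 mice, near the array medians.

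The 3 fibrinogen chains, adjacent genes on chromosome 3 whose products form the clot, varied together from mouse to mouse. Fgb, the beta chain, read 3.40, 6.99, 3.67, 3.58, 3.36, 3.86, 6.90 and 4.09 in the controls. It read 7.67, 7.20, 3.54, 7.82, 6.09, 4.10, 3.82 and 3.32 in the deletion mice. The gap between the 6 mice and the other 10, 1.99 log2 units, was the widest among the 33 members besides Alb. Fgg, the gamma chain, read 2.73, 6.38, 3.13, 2.61, 2.79, 2.96, 5.80 and 3.83 in the controls, against 6.97, 6.85, 3.33, 7.27, 4.96, 3.46, 2.70 and 2.48 in the deletion mice. In the 10 mice with lower Alb, Fgg lay under the array median throughout, and control 8, the mouse with the next highest Alb, had the highest of those values. Fga, the alpha chain, reached 6.06 in deletion mouse 4 and at most 3.67 in the other 10. Serpinc1 (antithrombin), F2 (prothrombin) and Plg (plasminogen) also kept the 6 mice apart, by 0.22, 0.097 and 0.59. Vtn, which encodes the adhesive protein vitronectin, ran from 6.52 to 7.68 and was above the array median in all 16 mice. It was highest in deletion mouse 5, which had the lowest Alb of the 6, and within the 6 mice its correlation with Alb was -0.22.

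**Figure D2:**
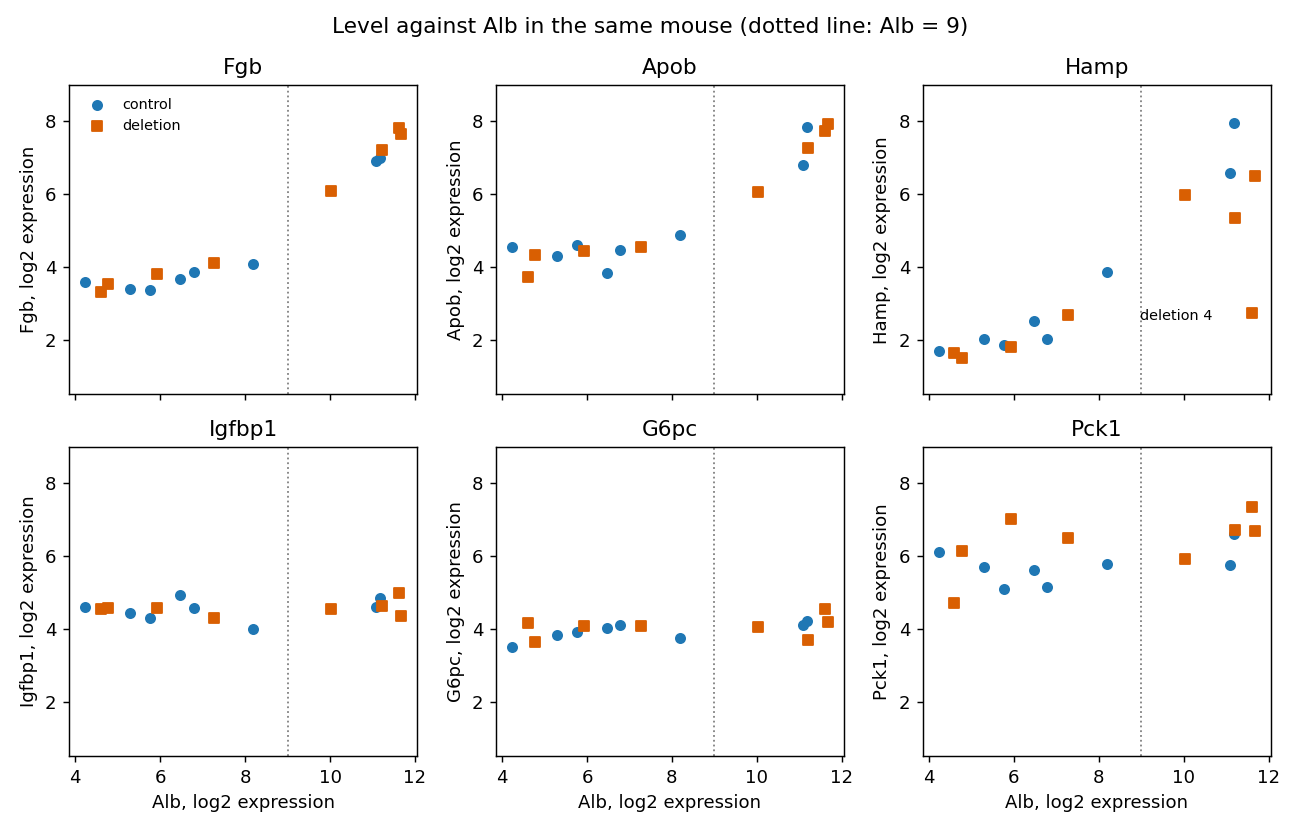
Log2 expression of 6 genes (vertical axes, all from 0.5 to 9) against that of Alb (horizontal axes) in 8 controls (circles) and 8 deletion mice (squares), with a dotted line at Alb = 9. Fgb and Apob climb to the right of the line in controls and deletion mice alike, Igfbp1 and G6pc stay flat, Pck1 is scattered, and Hamp is low in deletion mouse 4.

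The inter-alpha-trypsin inhibitor heavy chains, some of which attach to hyaluronan in the matrix, varied less. Itih4 read 4.64, 6.25, 5.12, 4.89, 5.24, 5.15, 5.91 and 4.97 in the controls, against 6.29, 6.32, 4.99, 7.00, 5.54, 5.11, 5.17 and 5.14 in the deletion mice, and it was the 1 chain of 4 in which the 6 mice did not overlap the others. Itih2 read 4.59, 5.37, 4.64, 4.41, 4.82, 4.43, 5.16 and 4.75 in the controls, against 5.40, 5.58, 4.53, 5.87, 4.85, 4.72, 4.93 and 4.44 in the deletion mice. Here deletion mouse 5, at 4.85, fell below deletion mouse 7. Itih1 and Itih3, neighbours of Itih4 on chromosome 14, had ranges of 1.19 and 1.34, with 4 and 3 of the 6 mice above all others.

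Of the 7 members grouped as hepatocyte enzymes and fatty acid binding, 5 had all 6 mice with high Alb above the other 10. Over all genes besides Alb the share was 0.280%. These 7 members too were chosen for following Alb, so nothing further is read from this. G6pc and Pck1, also enzymes inside the cell, are described below with Igfbp1. Fabp1, the liver fatty acid binding protein, read 2.96, 6.46, 3.51, 2.74, 2.81, 2.94, 6.87 and 4.37 in the controls. It read 7.44, 6.94, 3.66, 6.79, 5.76, 3.53, 2.76 and 3.23 in the deletion mice. The 6 mice lay above the other 10 by at least 1.40, and control 8 led the rest. Cps1 and Arg1, the first and last enzymes of the urea cycle, were apart by 0.22 and 0.25. Tat and Hpd, which break down tyrosine, were apart by 0.71 and 0.21. Tat read 6.62 and 6.34 in controls 2 and 7 and 7.81, 7.46, 7.28 and 5.49 in deletion mice 1, 2, 4 and 5. Cyp2e1, a cytochrome that oxidises ethanol, read 7.06, 9.03, 6.71, 5.47, 4.61, 5.21, 7.77 and 6.76 in the controls, against 8.65, 8.65, 5.83, 9.40, 7.29, 7.52, 7.61 and 5.97 in the deletion mice. Deletion mouse 5, at 7.29, lay below deletion mice 6 and 7, whose Alb was lower. Cyp3a11, a drug-metabolising cytochrome with close relatives in its family, stayed between 3.92 and 5.12.

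The order among the 6 mice was not the same for Alb and for the other members. Alb was highest in deletion mouse 1, but of the 33 other members 22 were highest in deletion mouse 4, 5 in control 2, 4 in deletion mouse 1 and 1 each in control 7 and deletion mouse 5. Deletion mouse 5 was the lowest of the 6 for 26 members. Of the 34 members, between 30 and 33 lay above the array median in the 6 mice, and between 14 and 21 in the others. Among those 10 mice, control 8 had the highest value for 12 of the 33 members and deletion mouse 7 for 9.

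None of Igfbp1, G6pc and Pck1 had all 6 mice with high Alb above the others, which also held for 10 further members, among them Hp, Apoa5 and Cyp3a11. Only 0.280% of all genes besides Alb had that arrangement, so nothing is read from its absence in these 3. Igfbp1 encodes a binding protein for insulin-like growth factors that liver secretes in fasting. It read 4.44, 4.83, 4.91, 4.59, 4.29, 4.56, 4.59 and 4.00 in the controls, against 4.35, 4.63, 4.56, 4.97, 4.55, 4.31, 4.58 and 4.56 in the deletion mice. The 6 mice with high Alb lay between 4.35 and 4.97, inside or next to the 4.00 to 4.91 of the others, and 1 of the 6 exceeded them all. G6pc, the glucose-6-phosphatase that releases glucose from liver, read 3.84, 4.21, 4.01, 3.50, 3.91, 4.09, 4.10 and 3.76 in the controls, against 4.20, 3.69, 3.65, 4.53, 4.06, 4.06, 4.07 and 4.16 in the deletion mice. It was above the array median only in deletion mouse 4. Pck1, which makes phosphoenolpyruvate for gluconeogenesis in liver and for glycerol synthesis in fat, read 5.69, 6.60, 5.63, 6.11, 5.11, 5.15, 5.74 and 5.79 in the controls. It read 6.70, 6.73, 6.15, 7.36, 5.92, 6.50, 7.01 and 4.71 in the deletion mice, and only deletion mouse 4 exceeded deletion mouse 7, whose Alb was 5.93.

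Among the 6 mice with Alb above 9, 2 were controls and 4 were deletion mice, and these were picked by a measured level, so they are set side by side with no mean and no test. For Igfbp1 the controls 2 and 7 read 4.83 and 4.59, and the deletion mice 1, 2, 4 and 5 read 4.35, 4.63, 4.97 and 4.55, on both sides of the controls. For G6pc the values were 4.21 and 4.10 against 4.20, 3.69, 4.53 and 4.06, again on both sides. For Pck1 they were 6.60 and 5.74 against 6.70, 6.73, 7.36 and 5.92, with 3 of the 4 deletion mice above control 2. None of the 3 was lower in all 4 deletion mice than in both controls. Since Igfbp1 and G6pc hardly exceeded the level of mice with little Alb, a group difference tied to Alb was not detectable in them at this signal.

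Pck1, Hp and Cyp2e1 were also high in mice rich in fat cell transcripts. In the 10 mice with Alb at or below 9, the correlation with the mean of 6 fat cell genes was 0.88 for Pck1, 0.83 for Hp and 0.70 for Cyp2e1 (Spearman 0.87, 0.85 and 0.76). Without the 2 mice farthest from the median of the fat cell mean it was 0.83, 0.83 and 0.41. Itih3 had the same correlation as Cyp2e1, 0.70 (Spearman 0.36), but without those 2 mice it was -0.15. Deletion mouse 7 had the highest fat cell mean, 6.87, against 4.90 to 5.90 in the other 15 mice, with Lep, the hormone leptin, at 8.18 and Cidec, a lipid droplet protein, at 7.99. The fat cell genes themselves did not follow Alb, with correlations from -0.22 to 0.06. Among the other members, Ambp had a correlation with the fat cell mean of 0.57 in the 10 mice and 0.65 without those 2. Apob had 0.32 and 0.82, so the relation was not limited to the genes named first. The part of fat cells in the levels of these genes was not tested.

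**Figure D3:**
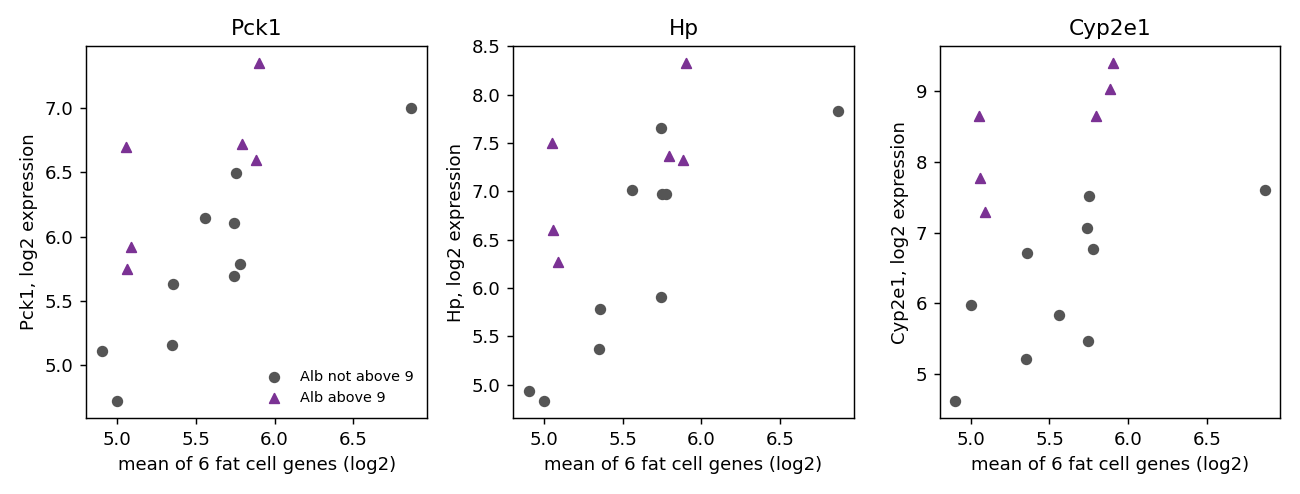
Log2 expression of Pck1, Hp and Cyp2e1 (vertical axes) against the mean of 6 fat cell genes (horizontal axes) in 10 mice with Alb not above 9 (circles) and 6 with Alb above 9 (triangles). Among the circles the level climbs with the fat cell mean, most evenly for Pck1, and deletion mouse 7 lies at the far right at 6.87.

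The deletion and control groups did not differ past the threshold for any member tested. Alb averaged 8.39 ± 3.08 in the deletion mice and 7.37 ± 2.59 in the controls (SD, n = 8 each), higher by 1.01 (SE 1.23, limma adjusted p = 0.716). Its 95% interval was -1.57 to 3.60, and each group held mice at both ends of the range. Intervals here come from the fit of all 22180 genes without a filter. Testing required a level over the array median in 8 or more mice, which 23 of the 34 members had. Of these 23, 0 passed at a limma adjusted p under 0.05 and 2, Vtn and Pck1, had an unadjusted p under 0.05. Over all 13601 genes tested 249 passed, or 1.83%. The members' adjusted p-values ran from 0.195 for Vtn to 0.957 for Itih1. The 11 members that did not reach the filter were Apoa5, Fga, Fgb, Fgg, Serpinc1, Ambp, F2, Itih3, Fabp1, Arg1 and G6pc.

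Among the members tested, the largest differences, those of Cyp2e1 and then Alb, did not pass. Cyp2e1 differed by 1.04 (SE 0.59), Ahsg by 0.72 (SE 0.69), Hp by 0.70 (SE 0.45) and Tat by 0.69 (SE 0.56). Fgg, Fgb and Fabp1, which did not reach the filter, differed by 0.97, 0.96 and 0.93 in the fit without one. Pck1 averaged 6.38 ± 0.81 against 5.73 ± 0.48 (SD, n = 8 each), higher by 0.66 (SE 0.29, limma adjusted p = 0.255). Without deletion mouse 8, the lowest for Pck1 at 4.71, the difference was 0.90 and passed (limma adjusted p = 0.0273). In that fit 680 of all 13601 genes passed, against 249 with all mice, so the call was not particular to Pck1. Vtn differed by 0.38 (SE 0.15). Igfbp1 differed by 0.04 (SE 0.12), with an interval of -0.21 to 0.28, so that differences beyond 0.28 in either direction lay outside it. Without a filter, Itih3 differed by 0.50 (SE 0.16, limma adjusted p = 0.158) and G6pc by 0.12, the latter with an interval of -0.13 to 0.38. Of the 34 members 31 had a difference above 0, with a median of 0.42, against 45.4% of all 22180 genes, whose median was -0.015. The members are not independent of each other, since they varied with Alb, and 4 of the 6 mice with high Alb were deletion mice.

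**Figure D4:**
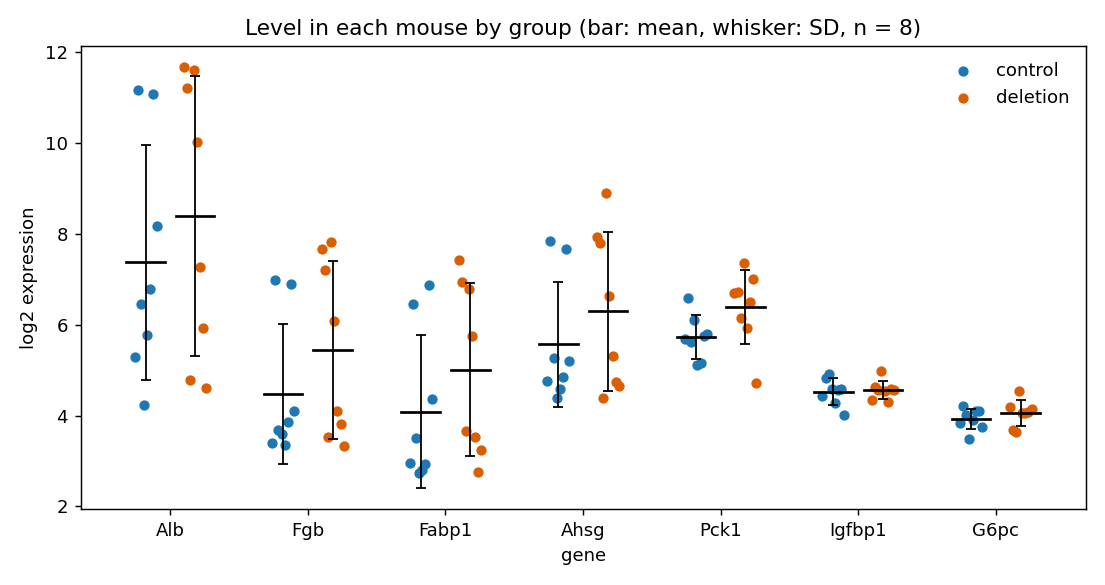
Log2 expression (vertical axis) of 7 genes (horizontal axis) in each of 8 controls (left of each pair) and 8 deletion mice (right), with the mean as a bar and the SD as a whisker. Alb, Fgb, Fabp1 and Ahsg are spread from low to high in both groups, while Igfbp1 and G6pc lie in a narrow band.

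The groups were also compared with the Alb level of each mouse as a covariate. The members were chosen for following Alb, so a smaller difference than before is built into this fit and nothing is read from it. In this fit, made without a filter, 0 of 33 members passed and 2, Itih3 and Vtn, had an unadjusted limma p under 0.05, while 61 of 22179 genes passed, or 0.275%. The smallest limma adjusted p among members, 0.145, belonged to Itih3, which was 0.42 (SE 0.12) higher in the deletion mice at a given Alb. Igfbp1 differed by 0.02 (SE 0.12), G6pc by 0.08 (SE 0.11) and Pck1 by 0.53 (SE 0.26, limma adjusted p = 0.420). The largest differences among the members in this fit were those of Cyp2e1, 0.64 (SE 0.35), and Hp, 0.54 (SE 0.42). Fgb and Fgg differed by 0.36 (SE 0.21) and 0.37 (SE 0.23). Fabp1 differed by 0.32 (SE 0.24), Serpinc1 by 0.31 (SE 0.16) and Tat by 0.28 (SE 0.25).

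**Figure D5:**
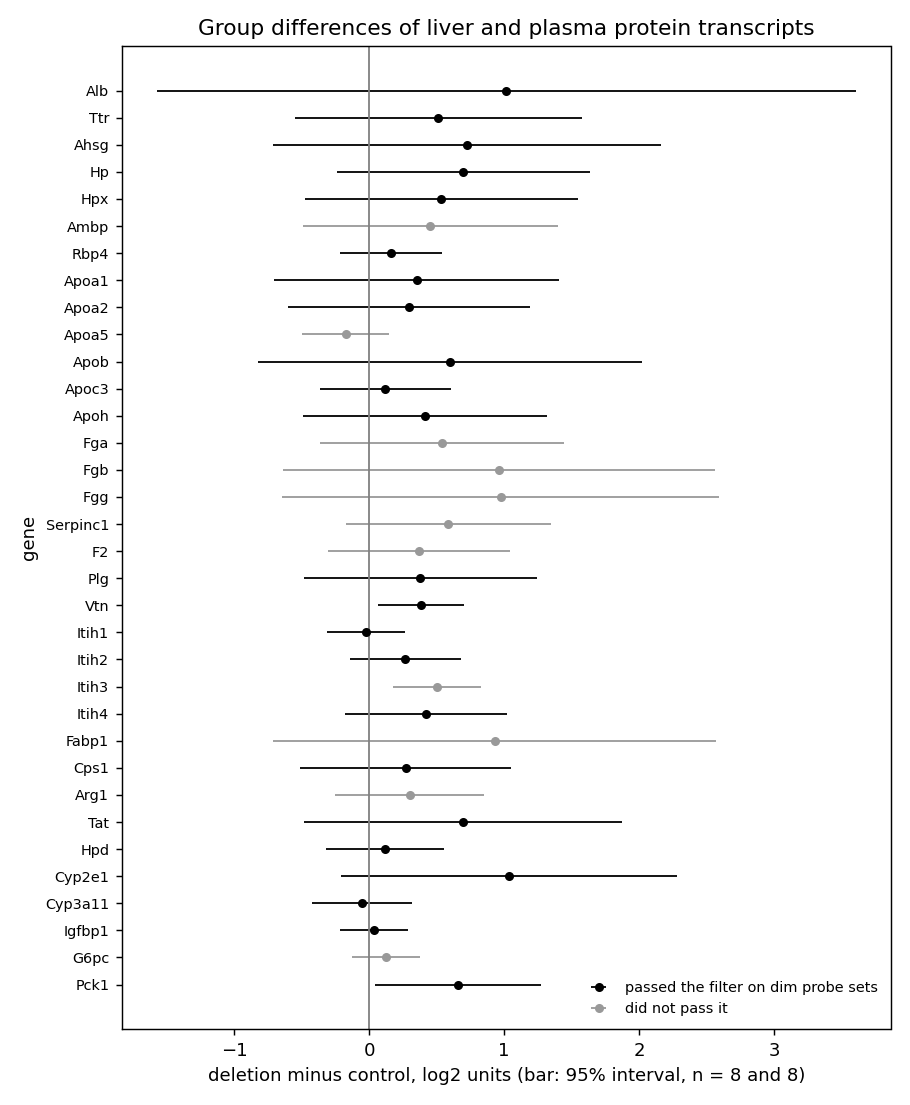
Difference between deletion mice and controls in log2 units (horizontal axis) with its 95% interval for 34 genes (vertical axis), from the fit of all genes without a filter, n = 8 and 8, with black for the 23 that passed the filter on dim probe sets and grey for the 11 that did not. Most points lie right of 0 and nearly all intervals cross it, the widest belonging to Alb; Vtn, Pck1 and Itih3 do not cross 0 before adjustment.

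Other hepatocyte genes, from a list set beside the members, showed the pattern in part. Of 55 listed genes 50 were measured, and in 12 of them (24%) all 6 mice with high Alb exceeded the other 10. Over all genes besides Alb the share was 0.280%. The list was made with earlier results of these data known, so nothing is read from the difference. Slco1b2, a bile acid transporter of the hepatocyte membrane, lay between 4.18 and 6.23 in the 6 mice and between 2.00 and 3.23 in the others. Tdo2, which starts the breakdown of tryptophan, lay between 3.76 and 5.56 against 2.30 to 3.59. Of the 50, 11 were under the array median in every mouse, and of the 16 that passed the filter 0 changed with deletion (limma). With 1.83% of all genes tested passing, so few genes tell nothing about the list. Of the genes of the hepatocyte zones, Rgn and Cyp1a2 followed Alb, with correlations of 0.96 and 0.89, and the others had at most 0.39. The 8 pericentral genes had a median correlation with Alb of 0.21, and only Rgn, a calcium-binding protein, had all 6 mice above the other 10. Glul, glutamine synthetase, had a correlation of 0.26 but lay between 9.74 and 11.34 over all 16 mice. The 3 measured periportal genes, Hal, Cyp2f2 and Ass1, had correlations of 0.07, 0.39 and 0.14, and none separated the 6 mice. Hal lay between 6.47 and 9.03 over all 16 mice. With such levels of Glul and Hal in mice with little Alb, nothing is read from these correlations about the zones. The 10 genes outside the members that were most like Alb over the 16 mice had correlations from 0.93 to 0.97. They were Pzp, Rgn, Cyp2c70, Slco1a1, Cyp2a12, Tdo2, Serpina1c, Slco1b2, Azgp1 and Cfi. Pzp, a broad protease inhibitor of plasma, ran from 3.41 to 8.81, and Serpina1c, of the alpha-1-antitrypsin family, from 1.71 to 8.84. Serpina1c and the cytochromes have near-identical relatives, and how far their probes are shared was not analysed here.

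Hamp, the iron hormone hepcidin, set deletion mouse 4 apart from the other mice with high Alb. It read 2.04, 7.95, 2.52, 1.68, 1.86, 2.01, 6.59 and 3.87 in the controls. It read 6.50, 5.34, 1.49, 2.75, 5.97, 2.67, 1.81 and 1.64 in the deletion mice. Deletion mouse 4 led 22 members, yet its Hamp of 2.75 lay below the 5.34 of deletion mouse 2, the next lowest of the 6, and below the 3.87 of control 8. In the same mouse Slc4a1, the anion exchanger of red cells, was at 10.18, the highest of all mice, against 5.42 to 9.11 in the others. The 5 measured red cell and neutrophil genes averaged 6.22 there, and the highest mean, 6.30, was that of deletion mouse 6. The means of these 5 genes lay between 4.66 and 6.30 in the deletion mice and between 4.34 and 4.67 in the controls. S100a8, a calcium-binding protein of neutrophils, was higher with deletion by 1.28 (SE 0.27, limma adjusted p = 0.0227). Their part in the Hamp value was not tested.

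Among markers of the other cells of liver, the highest correlation with Alb was 0.59, for Cd5l. Of the 5 Kupffer cell, 5 sinusoidal endothelial, 5 stellate and 5 measured bile duct genes, none had all 6 mice above the other 10. The share over all genes besides Alb was 0.280%, so nothing is read from that count. Clec4f, which marks Kupffer cells, stayed between 4.30 and 4.75, and Cd5l, Clec4g, Colec10, Epcam and Cftr lay under the array median in every mouse. Others, such as Timd4 and Marco of macrophages and Stab1 and Stab2 of sinusoidal endothelium, lay above it in all 16 mice. Vsig4, a complement receptor of resident macrophages, was highest in deletion mouse 3 at 7.21, where Alb was 4.78. Lrat, which esterifies retinol and marks stellate cells, was highest in deletion mouse 4 at 7.17, but read 4.03 and 3.95 in controls 2 and 7. Both rose with deletion, Vsig4 by 1.17 (SE 0.21, limma adjusted p = 0.00980) and Lrat by 1.58 (SE 0.27, limma adjusted p = 0.00725).

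No marker of the exocrine pancreas, kidney tubules or small intestine had all 6 mice with high Alb above the other 10. Since only 0.280% of all genes besides Alb did, this is not read as a result about the markers. Some of these markers lay above the array median in most mice, namely Aqp2 of kidney in 16, Ctrb1 of pancreas in 15 and Lgals4 of intestine in 11, and others, such as Prss2, Cpa1 and Kap, in 0. In the small intestine list only Apoa4, which mouse liver also makes, followed Alb (r = 0.87), and Fabp2, Sis and Cdh17 lay under the array median in every mouse. The skeletal muscle fibre mean ran from 12.77 to 12.89 in the 6 mice with high Alb, inside the range of the others.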

How the data were processed

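RNA of 16 gastrocnemius muscles was labelled from 250 ng and hybridised to 1-colour Affymetrix arrays, per the labels' protocols. The deposited table gives 1 log2 value for each probe set and mouse. The authors obtained it by RMA in oligo, per the submitters' processing notes. Versions and scan dates were not used here. Values were used as deposited. The array limits precision through the number of mice, and each array is labelled a biological replicate.

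Of 41345 probe sets, 23521 have 1 gene symbol in the platform annotation, 1814 several and 16010 none. For each gene the probe set with the highest mean was kept. The members and all lists were chosen with earlier results of these data known. Groups were compared with limma 3.58.1 (R 4.3.3; lmFit, eBayes, Benjamini-Hochberg adjustment at 0.05 over all genes tested) after keeping 13601 genes above the array median in at least 8 mice. Values in every mouse are given for Alb, the 3 FoxO targets, and the 2 members with the widest range in each other role; Tat, Hamp, Slc4a1 and the other singled-out genes were chosen after their values were seen. Correlations, promoter matches and the order of mice were computed in Python 3.11.15 with pandas 2.3.3. On simulated data for this comparison (13601 genes) the limma script recovered 80 of 100 genes changed by 0.5 and 98 of 100 changed by 1. It made 3 false calls. The changed genes were drawn at random and the noise independently for each gene. The simulation therefore does not tell how well changes would be found in members that vary widely and together, such as Alb (SE 1.23). Alternatives varied the filter, centring, normalization, probe set choice, variance model, array weights, covariates and mice left out.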

Additional observations from a re-analysis of the deposited data

Results flagged for a closer look

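Foxo1 in deletion mouse 4, at 8.23, stood apart from the other 7 deletion mice, which lay between 7.05 and 7.41. Its gap to the nearest of them was 0.695 of the group's range. Of 44 groups of 8 mice examined in 22 genes, this was the 1 with such a mouse, and chance gives about 1 in 20. The same mouse had the highest level of 22 of the 33 members besides Alb.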

How the results depend on the processing

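The count of members past the limma threshold was 0 under each other filter, scaling, probe set choice, variance model, covariate and set of mice tried, except without deletion mouse 8, where Pck1 passed, so that leaving out single mice gave 0 to 1. The count over all genes, 249, moved more: 137 with no filter, 133 with Alb as a covariate, 93 with the mean of the members as a covariate and 7 without the 6 mice with Alb above 9, where fewer mice were compared. Chosen after seeing the data, the unfiltered versions gave 61 with Alb as a covariate, 50 with the members' mean and 6 without the 6 mice. Leaving out single mice gave 107 (deletion mouse 6) to 680 (deletion mouse 8). The count moved by over 1.5 times also without deletion mouse 1 (134), 2 (127), 5 (158) or 7 (162), and without control 7 (135), 6 (143), 5 (131), 3 (129), 2 (154) or 1 (160). Of the 249 genes 83.5% were higher with deletion, against 65.3% of 193 with arrays centred and 72.4% of 214 after quantile normalization. The replicate numbers were not treated as pairs in the main fit. Deviations of same-numbered mice correlated from -0.083 to 0.250, which cannot tell whether the numbers mark pairs. With a replicate block 213 genes and 0 members passed.

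Of 293 single-member values recomputed, 277 kept their direction and side of the threshold, 1 newly passed and 15 changed sign. With the members' mean as a covariate the difference was -0.37 for Alb, -0.069 for Ahsg, -0.17 for Apob, -0.19 for Apoa2 and -0.0080 for Igfbp1. That mean was taken over the measured members besides Igfbp1, G6pc and Pck1. Alb, Ahsg, Apob and Apoa2 are thus part of it, so smaller differences are built into this fit. Without the 6 mice it was -0.48 for Alb, -0.074 for Ahsg, -0.18 for Apob and -0.27 for Apoa2, and in the unfiltered version -0.018 for Fgg. Apoa2 was at -0.030 with Alb as a covariate. Igfbp1 was at -0.018 with arrays centred, -0.015 with array weights, and between -0.040 and 0.091 with single mice left out. Nothing is read from the reversals in the fits with a covariate, and the cause of the others was not tested.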

Other observations

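Of the 62 genes in which all 6 mice with Alb above 9 exceeded the other 10, 20 were members, 13 were on a hepatocyte list and 29 were on neither. Among these 29 were Slc27a2, a fatty acid transporter and acyl-CoA synthetase, Pon1, the paraoxonase of high density lipoprotein, and Serpina6, which carries corticosteroids in plasma. In 12 genes all 6 mice lay below the other 10.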
